A study of Triticum aestivum with 6 samples.

Results

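Asparagine synthetases are the enzymes that make the amide amino acid asparagine. In wheat roots treated with abscisic acid (ABA), 16 of the 83219 genes in the deposited table carried such a name. The rule that picks them reads the protein name and no measured value: the first recommended or submitted UniProt name attached to the gene had to start with "Asparagine synthetase". Of the 16, 13 were named as glutamine-hydrolyzing asparagine synthetases, and 3 were named after a fission yeast protein with an asparagine synthetase domain, whose role is not known with certainty.

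RNA-seq libraries came from roots of wild-type wheat of the line JW1. The 2N+ABA group (n = 3) spent 3 h in medium with 2 mM potassium nitrate and 5 µM ABA, and the 0N+ABA group (n = 3) spent 3 h with 2 mM potassium chloride and 5 µM ABA. Every seedling had germinated for 3 days, lost its endosperm, grown for 3 days with 2 mM nitrate and then spent 2 days without nitrogen. ABA was present in both groups, so the comparison asks which transcripts differed when nitrate was given in the presence of ABA, and the responses to nitrate and to the loss of added chloride cannot be told apart. Whether each sample was a culture of its own is not stated, so p-values cover only the spread seen among these libraries, and that spread may be technical.

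Asparagine synthetase moves the amide group of glutamine onto aspartate, with ATP as the energy source, and releases asparagine and glutamate. Asparagine carries more nitrogen per carbon than most amino acids, and plants use it to store and transport nitrogen. In Arabidopsis the gene ASN1 is known to be induced by darkness and low sugar, and in rice the first asparagine synthetase gene is known to be expressed in roots and to respond to ammonium. In cereal grain, free asparagine is the precursor of acrylamide formed on baking, which is why these genes are followed in wheat.

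Bread wheat carries 3 subgenomes, A, B and D, and the name of a gene in the table gives its chromosome. The 6 genes matched to rice asparagine synthetase 2 lay on chromosome group 1, as 2 genes on each of 1A, 1B and 1D. The 3 genes matched to rice asparagine synthetase 1 lay on 4A, 4B and 4D. On group 5, the 5A and 5D genes were matched to the asparagus enzyme, which is known to be induced in spears after harvest, while the 5B gene was matched to Arabidopsis asparagine synthetase 1. One more gene matched to the asparagus enzyme lay on 3A. The 3 domain-containing genes lay on 5A, 5B and 5D. Copies are described below by chromosome group, since the names split the group 5 copies.

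Library totals ran from 16907317 to 17735564 estimated counts. On the first 2 principal components of all tested genes, 0N+ABA replicate 2 lay away from the other 0N+ABA libraries, at 1.28 on the first component against 63.8 and 74.1, and at -79.0 on the second. The libraries with negative second-component scores were that one and 2N+ABA replicate 3 (-17.7), and the other 4 lay between 12.5 and 47.9. As a check of the tissue, the 7 genes for Casparian strip membrane proteins, which mark the root endodermis, summed to 158.2, 191.3 and 188.0 TPM (a transcript level scaled by gene length and library size) in 2N+ABA and to 116.6, 197.8 and 118.5 TPM in 0N+ABA, with 1 of them at 0 throughout. The full root list of 48 genes, which also holds nitrate transporters NRT2.1 and NPF6.3 that are known to respond to nitrate, summed to 586.1 to 979.9 TPM in 2N+ABA and to 165.1 to 261.7 TPM in 0N+ABA, with 4 at 0. A list of 104 leaf genes for photosynthesis proteins summed to 97.6 to 222.3 TPM in 2N+ABA and to 151.7 to 218.5 TPM in 0N+ABA, with 21 at 0 throughout. These are whole roots, in which a change in the number of cells of a type and a change in RNA per cell cannot be told apart.

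The members differed in level by orders of magnitude, and chromosome group 4 dominated. The 4A gene TraesCS4A02G109900 had the highest mean level, 261.0 TPM over the 6 libraries, which placed it at rank 577 of the 83219 genes. The 4D and 4B genes followed at 155.9 and 129.4 TPM, the 5A gene at 98.9 TPM and the 5D gene at 37.4 TPM. In each of the 6 libraries these 5 genes stood in that order. The ranges of neighbours from 4A down to 5A overlapped across libraries, while 5A and 5D, and 5D and the next gene, did not overlap. The first series of group 1 genes (TraesCS1A02G382800, TraesCS1B02G408200 and TraesCS1D02G390500) and the 5B gene lay between 7.30 and 7.82 TPM on average, with overlapping ranges. The second series on group 1 (TraesCS1A02G422100, TraesCS1B02G453600 and TraesCS1D02G430300) lay between 1.65 and 3.37 TPM. The 3A gene and the 3 domain-containing genes averaged 0.480 to 0.765 TPM.

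**Figure D1:**
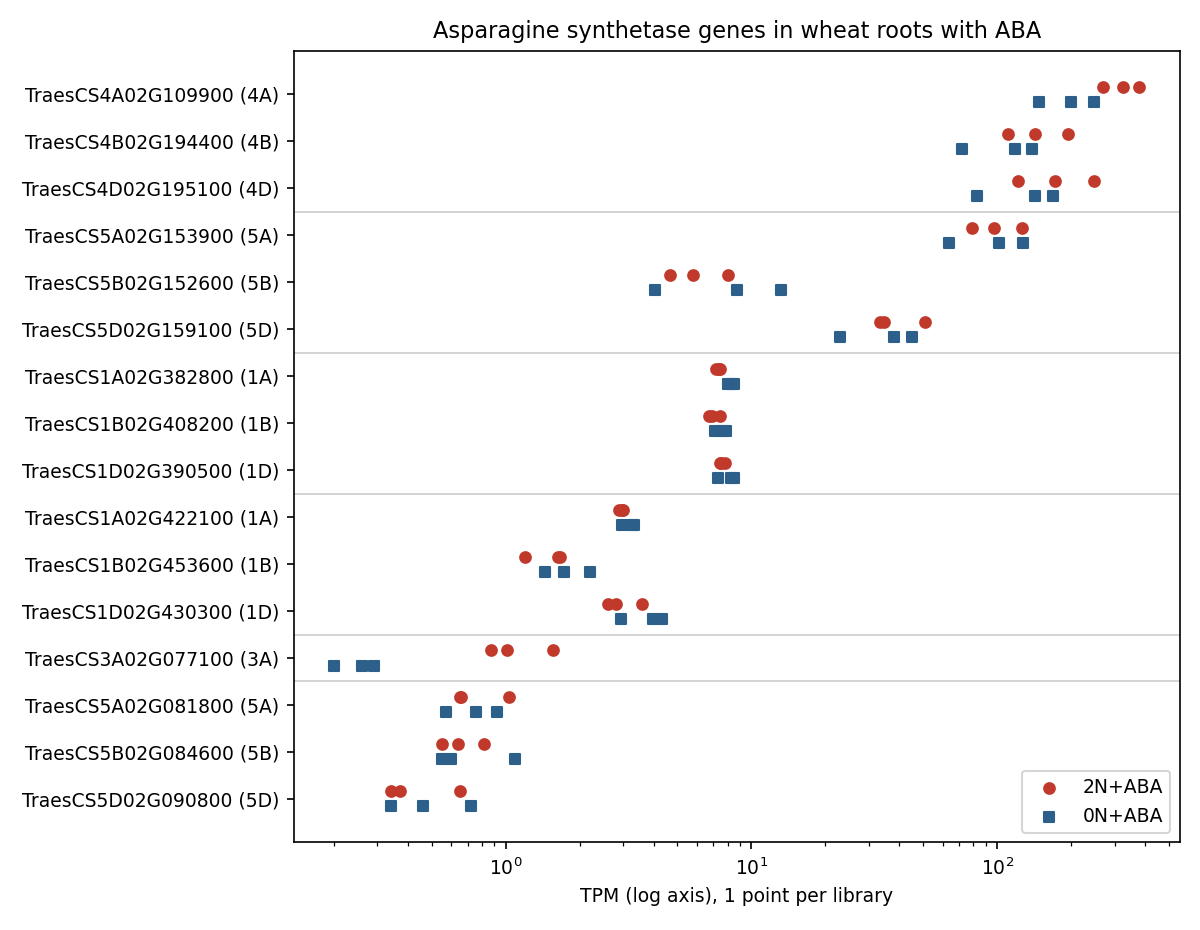
Level of each of the 16 genes in TPM on a log axis, 1 point per library, with 2N+ABA (red circles) above 0N+ABA (blue squares) in each row. Lines separate the chromosome groups, and the group 4 genes at the top average 129.4 to 261.0 TPM while the lowest genes average under 1 TPM.

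The test called 1 of these 16 genes, a number too small to be read as a trait of the family. All 16 passed the filter on low counts, and by edgeR's quasi-likelihood test with Benjamini-Hochberg adjustment over 53862 genes 1 rose in 2N+ABA (adjusted p under 0.05) and 0 fell, against 1.67% of all tested genes that rose, 0.579% that fell and 2.25% called in either direction. At an unadjusted p under 0.05 there were 2 members, both higher, and 0 lower, against 16.4% of all tested genes in either direction. DESeq2 called 2 rises and 0 falls among the members, against 2.65% of the genes it tested that rose. The log2 fold changes (2N+ABA over 0N+ABA) had a median of -0.04 over the members and of -0.02 over all tested genes, with 7 members above 0 and 9 below. In CPM (counts scaled by library size) the groups did not overlap in 3 members, of which 2 were higher and 1 lower in 2N+ABA, against 22.1% of all tested genes.

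The gene that rose was the 3A member, TraesCS3A02G077100, one of the lowest expressed. It had 0.87, 1.56 and 1.01 TPM in the 2N+ABA libraries, from 28, 50 and 33 estimated counts, against 0.26, 0.29 and 0.20 TPM in the 0N+ABA libraries, from 8, 9 and 6 counts. Every 2N+ABA library was above every 0N+ABA library. The log2 fold change was 2.27 (SE 0.350, edgeR adjusted p = 0.0174), a 4.82-fold rise. The gene passed the low-count filter through 2N+ABA only, where 3 libraries reached the minimum and in 0N+ABA 0 did, and without the filter its adjusted p was 0.00736 by edgeR. The call was lost without 2N+ABA replicate 3 (adjusted p = 0.0512), 0N+ABA replicate 1 (0.0738) or 0N+ABA replicate 3 (0.0768) by edgeR, with log2 fold changes of 2.37, 2.29 and 2.13. Even with nitrate this gene supplied 0.0975% to 0.240% of the summed TPM of the 13 glutamine-hydrolyzing synthetases, against 0.0376% to 0.0472% without.

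The most abundant member came next. The 4A gene had 323.4, 270.0 and 378.9 TPM in 2N+ABA, against 199.4, 247.2 and 147.3 TPM in 0N+ABA. The groups did not overlap, and the lowest 2N+ABA library was close to 0N+ABA replicate 2. Its log2 fold change was 0.76 (SE 0.198, edgeR adjusted p = 0.0983), which did not pass the threshold. It passed without 0N+ABA replicate 2 (log2 fold change 0.97, edgeR adjusted p = 0.0103) and by DESeq2 (0.76, adjusted p = 0.00788). Over all genes, these settings also raised the count of rises from 898 to 2852 and 1479. The 4A gene did not pass without any other single library (edgeR adjusted p from 0.158 to 0.296). With the replicate number as a block it did not pass either (edgeR adjusted p = 0.202).

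The 4B and 4D copies overlapped between groups. TraesCS4B02G194400 had 141.8, 111.1 and 194.4 TPM in 2N+ABA, against 118.5, 138.8 and 72.0 TPM in 0N+ABA. TraesCS4D02G195100 had 171.6, 120.9 and 248.2 TPM in 2N+ABA, against 142.8, 169.2 and 82.5 TPM in 0N+ABA. For both genes 0N+ABA replicates 1 and 2 were above 2N+ABA replicate 2 in TPM. Their log2 fold changes were 0.49 and 0.50 (SE 0.260 and 0.299, edgeR adjusted p = 0.407 and 0.467).

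On group 5, the ranges of all 3 synthetase genes overlapped between 2N+ABA and 0N+ABA. TraesCS5A02G153900 had 96.6, 78.9 and 125.6 TPM in 2N+ABA, against 102.1, 126.8 and 63.5 TPM in 0N+ABA (log2 fold change 0.09, SE 0.250). TraesCS5D02G159100 had 34.5, 33.3 and 51.0 TPM in 2N+ABA, against 38.1, 44.8 and 22.9 TPM in 0N+ABA (log2 fold change 0.21, SE 0.252). In both genes the 0N+ABA range reached below the lowest 2N+ABA library. The 5B copy, TraesCS5B02G152600, had 5.80, 4.67 and 8.05 TPM in 2N+ABA, against 8.72, 13.2 and 4.06 TPM in 0N+ABA. Its log2 fold change of -0.44 (SE 0.370) moved to 0.01 without 0N+ABA replicate 2 and to -0.78 without 0N+ABA replicate 3. None of these 3 genes passed edgeR's test (adjusted p = 0.904 for 5A, 0.738 for 5D and 0.618 for 5B).

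The first series of group 1 genes varied little. Within a group of libraries, the highest was 1.04 to 1.16 times the lowest for the first series, while the 6 synthetase genes of groups 4 and 5 varied 1.40 to 3.25 times. TraesCS1A02G382800 had 7.18, 7.45 and 7.36 TPM in 2N+ABA, against 8.33, 8.05 and 8.53 TPM in 0N+ABA. It was the member whose groups did not overlap in the lower direction, with a log2 fold change of -0.13 (SE 0.0962, edgeR adjusted p = 0.577). TraesCS1B02G408200 had 6.92, 6.74 and 7.47 TPM in 2N+ABA, against 7.90, 7.61 and 7.13 TPM in 0N+ABA, and TraesCS1D02G390500 had 7.83, 7.51 and 7.48 TPM in 2N+ABA, against 8.49, 7.33 and 8.24 TPM in 0N+ABA. Both overlapped between the groups. The 3 genes of the first series summed to 21.93, 21.7 and 22.31 TPM in 2N+ABA, against 24.72, 22.99 and 23.9 TPM in 0N+ABA, without overlap. The log2 fold change of that sum was -0.07 (SE 0.0919, edgeR adjusted p = 0.787). In the second series the 3 genes summed to 7.37, 8.17 and 6.81 TPM in 2N+ABA, against 9.4, 9.13 and 7.67 TPM in 0N+ABA, which overlapped (log2 fold change of the sum -0.16, SE 0.124, edgeR adjusted p = 0.592). The 6 genes had log2 fold changes between -0.27 and -0.02 and adjusted p between 0.577 and 0.936. The 3 domain-containing genes summed to 1.55, 1.84 and 2.32 TPM in 2N+ABA, against 2.73, 1.58 and 1.70 TPM in 0N+ABA, with 0N+ABA replicate 1 the highest. They had log2 fold changes of 0.15, -0.09 and -0.13 (SE 0.264, 0.319 and 0.405) from 10 to 46 counts per library, and none passed edgeR's test (adjusted p = 0.835, 0.925 and 0.911).

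**Figure D2:**
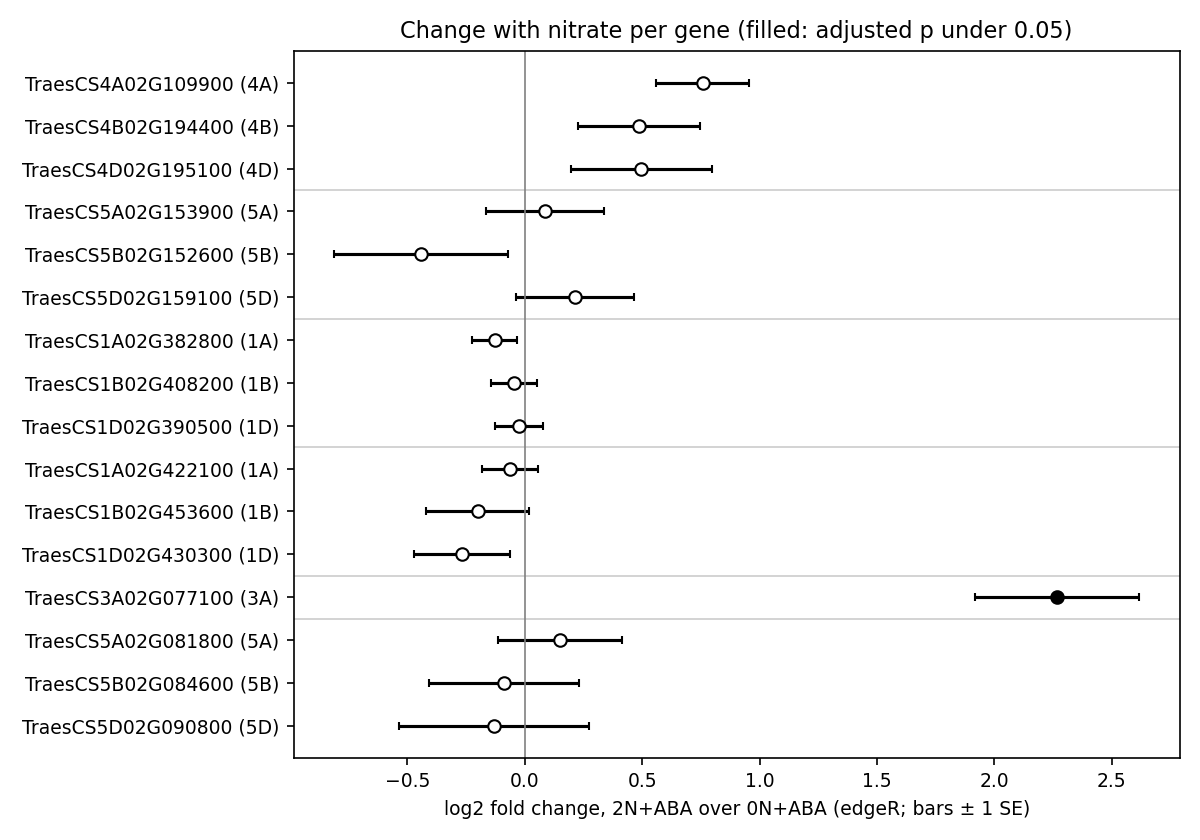
Log2 fold change of each gene, 2N+ABA over 0N+ABA, with bars of 1 standard error and a filled point where the adjusted p was under 0.05. The 3A gene stands apart at 2.27, the group 4 genes lie at 0.49 to 0.76, and the group 1 genes lie at -0.27 to -0.02.

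The A, B and D copies of a wheat gene are usually close in sequence, so how the authors' counting divided reads among them is uncertain, and a sum over copies does not depend on that division. The 3 group 4 copies summed to 636.8, 501.9 and 821.5 TPM in 2N+ABA, against 460.6, 555.2 and 301.8 TPM in 0N+ABA. With the copies' counts added up and the whole table refitted, the log2 fold change was 0.61 (SE 0.243, edgeR adjusted p = 0.258), and without 0N+ABA replicate 2 it was 0.83 (adjusted p = 0.0519). The 3 group 5 synthetases summed to 136.8, 116.8 and 184.6 TPM in 2N+ABA, against 148.9, 184.8 and 90.4 TPM in 0N+ABA (log2 fold change 0.09, SE 0.257, edgeR adjusted p = 0.90). Summing the 6 group 1 genes gave a log2 fold change of -0.09 (SE 0.0956, edgeR adjusted p = 0.715).

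Groups 4 and 5 varied together from library to library. In TPM, 2N+ABA replicate 3 was the highest and replicate 2 the lowest of its group in all 6 of these genes, and 0N+ABA replicate 2 was the highest and replicate 3 the lowest. In log2 CPM the same held, except that 2N+ABA replicate 2 was the lowest in 5 of the 6, with TraesCS5D02G159100 lowest in replicate 1. The correlation of log2 CPM after subtracting each group's mean ranged from 0.940 to 0.992 over the 9 pairs of a group 4 and a group 5 gene, as a description over 6 libraries that share depth and scaling. Between group 4 and the first series of group 1 it ranged from -0.785 to 0.820. The libraries highest in each group, 0N+ABA replicate 2 and 2N+ABA replicate 3, were also the ones with negative scores on the second principal component. The summed Casparian strip genes were also highest in 0N+ABA replicate 2 within 0N+ABA, but within 2N+ABA they were highest in replicate 2, where groups 4 and 5 were lowest in TPM. The part that this difference between libraries plays in these levels was not tested.

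**Figure D3:**
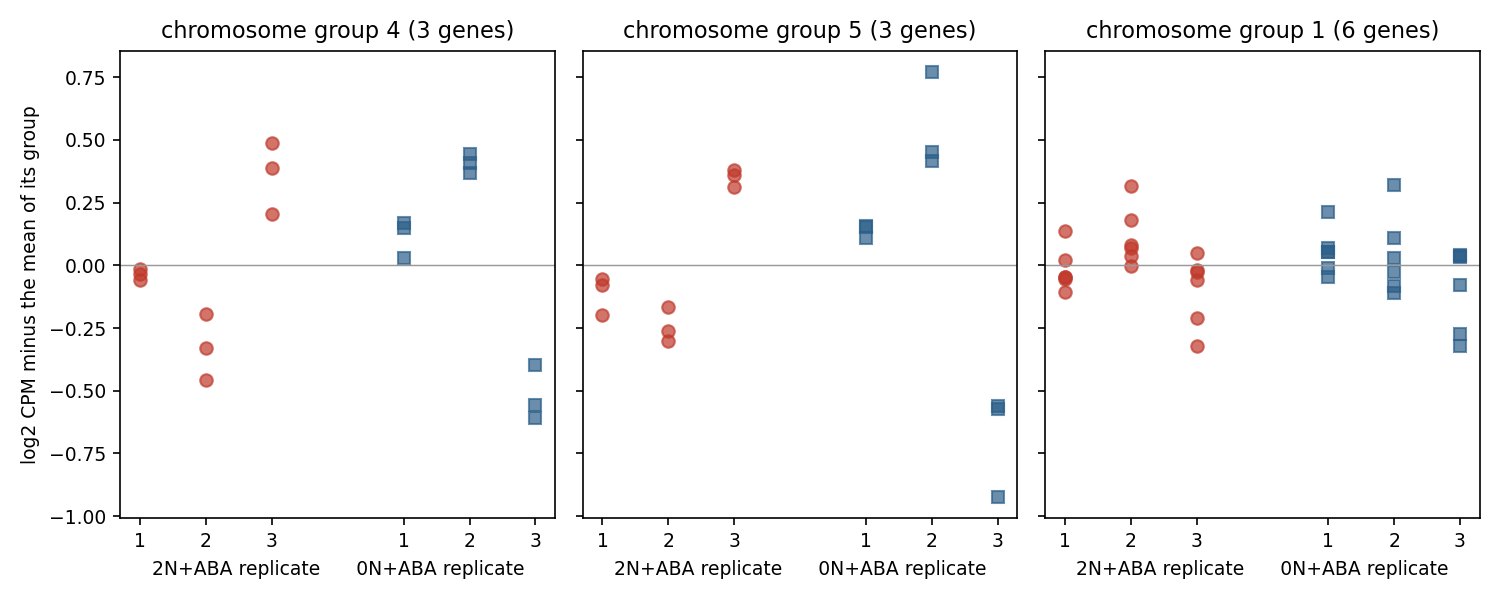
Log2 CPM of each synthetase gene minus the mean of its own group of libraries, by library, with 2N+ABA left and 0N+ABA right in each panel. The 6 genes of groups 4 and 5 are all highest in 2N+ABA replicate 3 and in 0N+ABA replicate 2 and lowest in 0N+ABA replicate 3, and 5 of them are lowest in 2N+ABA replicate 2, while the first series of group 1 genes stays nearer to 0.

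Within each library the level of group 4 was then set against that of group 5. The summed TPM of group 4 was 4.654, 4.297 and 4.449 times that of group 5 in the 2N+ABA libraries, against 3.093, 3.005 and 3.338 times in the 0N+ABA libraries. The means were 4.47 ± 0.179 and 3.15 ± 0.173 (SD, n = 3), and the groups did not overlap. The exact 2-sided permutation test on the log2 ratio gave p = 0.10, the smallest that 3 against 3 samples allow, and p = 0.36 after Benjamini-Hochberg adjustment over the 9 shares and ratios computed. The difference in mean log2 ratio was 0.51, and leaving out any 1 library gave 0.47 to 0.55. This ratio was chosen after the values had been seen.

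As a share of the 13 glutamine-hydrolyzing synthetases, group 4 made up 79.2%, 77.2% and 79.3% of the summed TPM in 2N+ABA, against 71.5%, 71.9% and 71.2% in 0N+ABA. Group 5 made up 17.02% to 17.97% in 2N+ABA, against 21.32% to 23.92% in 0N+ABA. Neither share overlapped between the groups. Groups 4 and 5 made up most of this total, so the shares largely restate the ratio above and are not separate results. The total of the 13 genes did overlap, at 803.8, 650.2 and 1036 TPM in 2N+ABA and 643.9, 772.4 and 424.0 TPM in 0N+ABA.

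**Figure D4:**
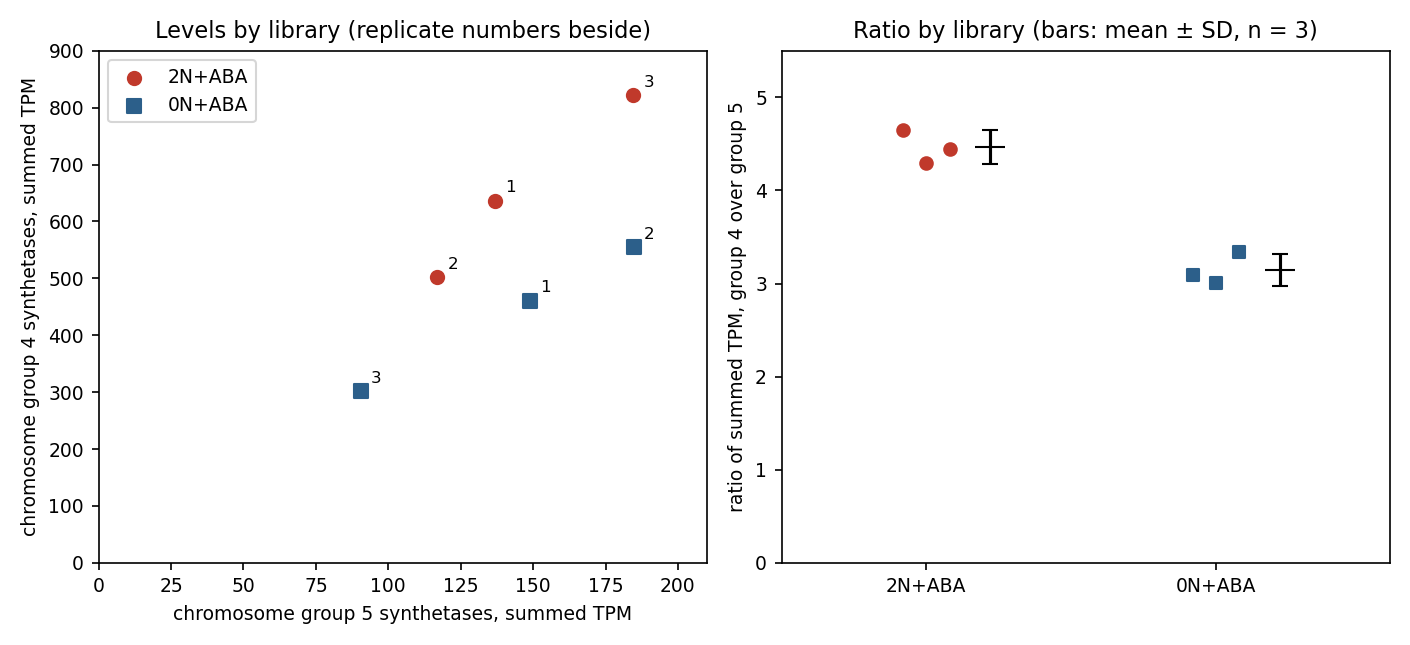
Left, summed TPM of the 3 group 4 genes against that of the 3 group 5 synthetase genes, 1 point per library with its replicate number. Right, the ratio of those sums by library with the mean ± SD (n = 3). At a given group 5 level the 2N+ABA libraries lie above the 0N+ABA libraries, with ratios of 4.297 to 4.654 against 3.005 to 3.338.

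The shares of the copies within a chromosome group were compared next. The 4A copy gave 50.8%, 53.8% and 46.1% of the group 4 TPM in 2N+ABA, against 43.3%, 44.5% and 48.8% in 0N+ABA, which overlapped (exact 2-sided permutation p = 0.20, and 0.36 adjusted over the same 9). The 5A copy gave 68.7% ± 1.64 of group 5 in 2N+ABA and 69.1% ± 0.953 in 0N+ABA (SD, n = 3), which also overlapped. Over every copy of the sets of 3 copies, only the 4B and 5B shares did not overlap. Both were lower in 2N+ABA, by narrow gaps between the nearest libraries. They were picked because they did not overlap, and these differences were not tested. The 4B copy gave 22.26%, 22.13% and 23.66% of group 4 in 2N+ABA, against 25.72%, 25% and 23.85% in 0N+ABA, and the 5B copy gave 4.239%, 3.998% and 4.36% of group 5 in 2N+ABA, against 5.855%, 7.145% and 4.491% in 0N+ABA. The first series of group 1 was balanced, with 33.4% ± 0.856 from 1A in 2N+ABA and 34.8% ± 1.01 in 0N+ABA (SD, n = 3).

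The enzymes that make the substrates of asparagine synthesis were compared by lists of protein names. Glutamine synthetase, which makes the amide donor, had 6 of 11 tested genes that rose by edgeR and 0 that fell. The median of its log2 fold changes was 1.19. Its gene with the smallest p, the plastid gene TraesCS2A02G500400, had 146.0, 165.8 and 133.5 TPM in 2N+ABA, against 20.6, 16.6 and 25.1 TPM in 0N+ABA (log2 fold change 2.90, SE 0.179, edgeR adjusted p = 0.000194). Glutamate synthase, which makes glutamate from glutamine, had 3 of 6 rises and 0 falls, with a median of 1.52. The gene with the smallest p was TraesCS2B02G152900, with 20.6, 21.1 and 17.5 TPM in 2N+ABA, against 6.51, 7.36 and 6.39 TPM in 0N+ABA. That gene had a log2 fold change of 1.599 (SE 0.130, edgeR adjusted p = 0.000779). For glutamate synthase the count was 6 of 6 by DESeq2, by edgeR without the low-count filter, and by edgeR without 2N+ABA replicate 3 or 0N+ABA replicate 2, and all 6 were higher by unadjusted p. At an unadjusted p under 0.05, 1 glutamine synthetase gene and 0 glutamate synthase genes were lower, and DESeq2 called no fall in either list.

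Aspartate, the other substrate, is made by aspartate aminotransferase from oxaloacetate. Of 11 aspartate aminotransferase genes 0 rose and 0 fell by edgeR, while 1 was higher and 0 lower by unadjusted p under 0.05, 0 were called by DESeq2, and the median log2 fold change was 0.12. Phosphoenolpyruvate carboxylase, which makes oxaloacetate, had 3 of 10 rises and 0 falls (5 higher and 0 lower by unadjusted p), and its median was 0.25. The count was 1 without 2N+ABA replicate 1, 2N+ABA replicate 2 or 0N+ABA replicate 1, and 1 with the replicate block. TraesCS7B02G237900 had 40.1, 42.8 and 38.6 TPM in 2N+ABA, against 11.55, 13.95 and 14.52 TPM in 0N+ABA (log2 fold change 1.66, SE 0.130, edgeR adjusted p = 0.000671). For amino acids that compete for aspartate, 7 of 30 genes were higher and 1 lower by unadjusted p, against 16.4% of all tested genes. By edgeR 3 of the 30 rose and 0 fell. That count was 0 without 2N+ABA replicate 1, and 1 with the replicate block or without any single one of the other libraries except 0N+ABA replicate 2, where it was 4. Of the 3 genes, 2 encode a bifunctional aspartokinase and homoserine dehydrogenase, and TraesCS5D02G181600 rose by 0.91 on the log2 scale (SE 0.111, edgeR adjusted p = 0.00631). As a check of the nitrate treatment, 9 of 10 nitrate and nitrite reductase genes rose, with a median log2 fold change of 3.13.

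Asparaginase releases ammonium from asparagine and so works against the synthetase. Of 15 tested asparaginase genes, 0 rose and 0 fell by edgeR, 8 were lower and 0 higher by unadjusted p, DESeq2 called 0 higher, and the median log2 fold change was -0.97. The 9 genes named as probable isoaspartyl peptidase/L-asparaginase 2 all had negative values, between -1.88 and -0.94, and held all 8 of those. The tested genes under the other asparaginase names had median log2 fold changes of -0.11 and 0.05. The summed level of the 9 asparaginase 2 genes was 17.9, 27.3 and 12.6 TPM in 2N+ABA, against 89.9, 37.1 and 64.9 TPM in 0N+ABA, with no overlap. These genes are part of the 15, so their sum is not a separate result. The gene with the smallest p, TraesCS2B02G538800, had 9.33, 14.3 and 6.71 TPM in 2N+ABA, against 55.4, 20.9 and 41.6 TPM in 0N+ABA (log2 fold change -1.88, SE 0.402, edgeR adjusted p = 0.0546). DESeq2 called 5 of these 9 lower, edgeR without the low-count filter 3, and edgeR without 0N+ABA replicate 2 called 6. Over all genes, these settings also raised the count of falls from 312 to 714, 457 and 1755. Library 0N+ABA replicate 2 was the lowest of its group in summed asparaginase 2 and the highest in groups 4 and 5 of the synthetases. These 9 genes share a name and lie on 2A, 2B and 2D, so the division of reads among them is uncertain.

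**Figure D5:**
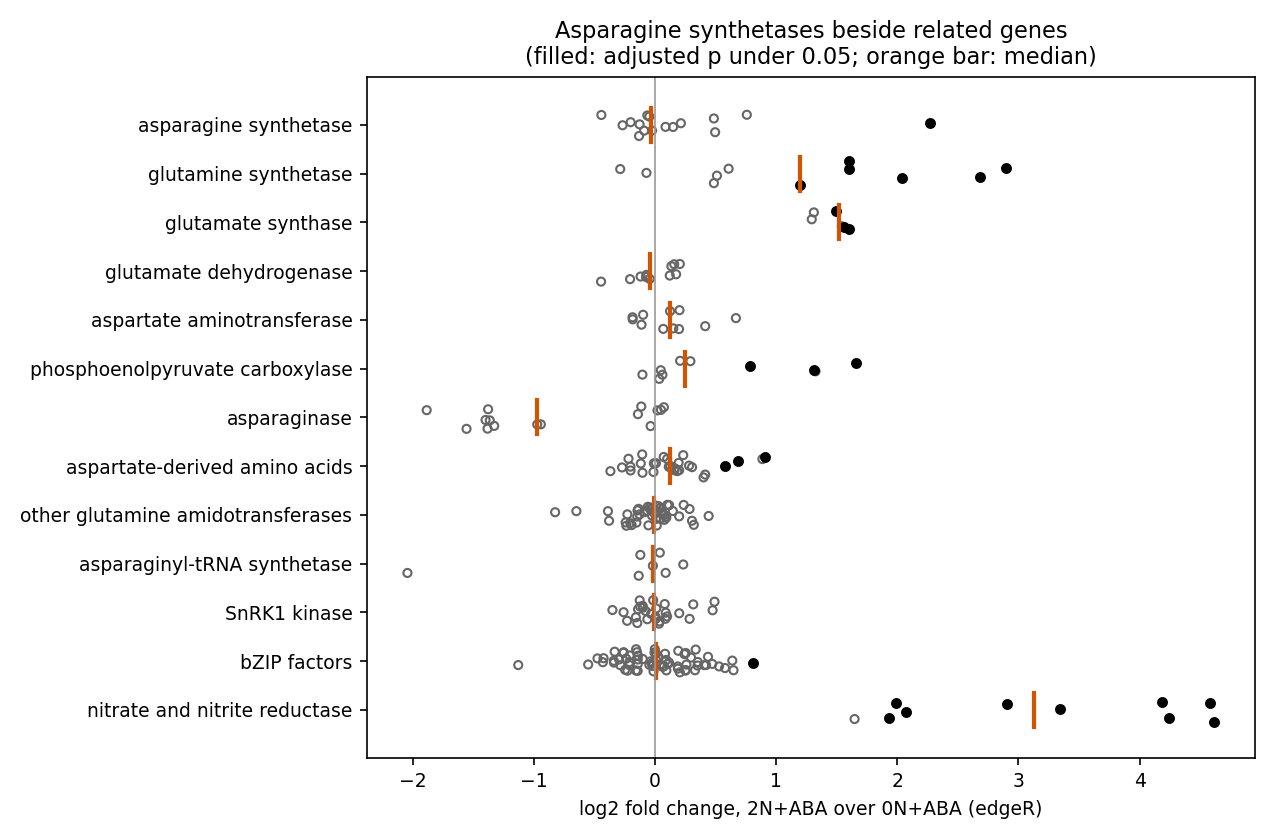
Log2 fold change (2N+ABA over 0N+ABA) of each tested asparagine synthetase gene and of genes in related lists, with filled points for an adjusted p under 0.05 and an orange bar at the median. Asparagine synthetase has its median at -0.04, glutamine synthetase at 1.19, glutamate synthase at 1.52 and asparaginase at -0.97. In the asparaginase list, the 9 asparaginase 2 genes lie at -1.88 to -0.94.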

How the data were processed

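Root RNA-seq libraries of 6 samples, 3 of 2N+ABA and 3 of 0N+ABA, were grouped by title. Libraries were poly(A)-selected and primed with random hexamers, per the labels' protocols, and no strand information or molecular identifiers are recorded. HISAT and Bowtie2 are named per the submitters' processing notes, with no roles given, and no source used here names the counter, genome build or annotation. Per the file headers, the authors deposited read counts per gene, which were not normalized, and TPM values. The deposited counts are treated as estimated counts, since 55.2% to 56.3% of the values per library were whole (tolerance 1e-06). Another 2 columns with means of groups outside these samples were not used. One label names leaf tissue, while the others name root. Of the members' IDs, 0 matched the reference gene table, so no coordinates or sequences are given.

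The estimated counts, rounded first, went into edgeR 4.0.16 under R 4.3.3 (filterByExpr, TMM, glmQLFit and glmQLFTest, no covariate) over 53862 genes, with Benjamini-Hochberg adjustment. The scripts were tested on simulated data. Standard errors come from the quasi-likelihood F statistic. DESeq2 1.42.0 was an alternative. Levels are TPM, and tests are on counts. The rule for the members uses protein names only, but it and the lists were chosen with earlier results of these data known. Named genes were all members, the gene with the smallest p in each list, and the 3 genes most correlated with each of 2 members.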

Additional observations from a re-analysis of the deposited data

How the results depend on the processing

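The 2N+ABA libraries had 1 asparagine synthetase gene higher by edgeR, 2 by DESeq2, and 0 to 2 when 1 library was left out. No member was lower under any setting run (0 throughout). Over all genes, 898 were higher and 312 lower by edgeR, 1479 and 714 by DESeq2, 588 and 135 with the replicate number as a block, and 251 to 2852 and 32 to 1755 with 1 library left out, both extremes upward being without 0N+ABA replicate 2. In the related lists 25 genes were higher (15 to 38 with 1 library left out) and 0 lower, with 7 lower by DESeq2, 3 without the low-count filter and 0 to 8 with 1 library left out. No label says that same-numbered samples are pairs, so the numbers were not taken as pairs. Their deviations correlated at 0.0757, -0.229 and -0.217 for replicates 1, 2 and 3, which with 3 libraries per group cannot exclude pairing. Under the replicate block the 3A gene kept its call (adjusted p = 0.0318 by edgeR). With 1 library left out, the log2 fold change of the 3A gene ran from 1.95 to 2.45, that of the group 4 sum from 0.40 to 0.83, that of the 5B gene fitted as the name 1 sum of group 5 from -0.7802 to 0.0112, and that of the group 5 sum from -0.15 to 0.35. The cause of these shifts was not tested. DESeq2's size factors within edgeR changed no call of a member. Depth limits the 3A and the domain-containing genes, which had 6 to 50 counts per library.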

Other observations

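Other lists tied to asparagine were set beside all tested genes, of which 1.67% rose and 0.579% fell by edgeR. An unadjusted p under 0.05 was reached by 16.4% of all tested genes. At these shares, a list of this size taken from all tested genes would hold few edgeR calls. Of 45 genes for other glutamine amidotransferases and their partner subunits, 0 rose and 0 fell by edgeR (2 higher and 4 lower by unadjusted p under 0.05, 1 lower by DESeq2). The list was led by the CTP synthase gene TraesCS1A02G427100 with 8.28, 8.20 and 8.54 TPM in 2N+ABA, against 6.81, 6.84 and 7.14 TPM in 0N+ABA (edgeR adjusted p = 0.130). Of 7 genes for the tRNA ligase that loads asparagine, 0 rose and 0 fell by edgeR (1 lower at an unadjusted p under 0.05 and by DESeq2). For the SnRK1 kinases, which act in sugar starvation responses, 28 genes for catalytic or regulatory subunits had 0 rises and 0 falls by edgeR. Among them 1 was higher and 0 lower by unadjusted p, and 0 were called by DESeq2. Of 69 bZIP transcription factor genes 1 rose, TraesCS3A02G378700, with 11.1, 10.4 and 10.8 TPM in 2N+ABA, against 5.34, 6.24 and 7.52 TPM in 0N+ABA (log2 fold change 0.81, SE 0.141, edgeR adjusted p = 0.0279), while 10 were higher and 5 lower by unadjusted p. The count of rises was 0 with the replicate block and without 2N+ABA replicate 1, 2 or 3 or 0N+ABA replicate 1, and 4 without 0N+ABA replicate 2. Glutamate dehydrogenase had 0 calls among 11 genes by edgeR (0 by unadjusted p and 0 by DESeq2), led by TraesCS5D02G441900 (log2 fold change -0.44, SE 0.204).

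Over the 6 libraries, the genes most like the 3A synthetase in log2 CPM were TraesCS6B02G211900, a pectate lyase (r = 0.997), TraesCS3D02G384200, named as E3 ubiquitin-protein ligase AIRP2 (r = 0.996), and TraesCS5A02G118600, a V-type proton ATPase subunit (r = 0.995). Most like the 4A synthetase were TraesCS1D02G084400, named as transcription factor MYB61 (r = 0.9998), TraesCS7D02G358600, a catalytic subunit of protein phosphatase 2A (r = 0.998), and TraesCS3D02G086900, a peroxisomal fatty acid beta-oxidation protein (r = 0.998). Among 39792 genes compared, 1363 and 1155 reached r of at least 0.9 with the 3A and the 4A gene, so with 6 libraries many genes share either pattern.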
